A study of Homo sapiens with 18 samples.

Results

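The genes of the KMT2A complex and of the elongation machinery that KMT2A fusion proteins recruit were examined at 10 loci, KMT2A, KMT2B, MEN1, PSIP1, DOT1L, MLLT3, MLLT1, AFF1, AFF4 and CDK9, out of 19962 protein-coding genes (GENCODE 44, hg38, chromosomes Y and M left out). Cut&Tag, in which an antibody tethers the Tn5 transposase to a histone modification so that the nearby DNA is cut and tagged, was applied to MOLM-13 cells, an acute myeloid leukemia line of human origin that carries a KMT2A::MLLT3 rearrangement. Cells received 100 nM PR-957 (ONX-0914), an inhibitor of the immunoproteasome subunit PSMB8, or DMSO as the diluent, for 72 h per the labels (the legend of a supplementary heatmap gives a shorter time). H3K4me3, H3K27ac, H3K4me1 and H3K27me3 were profiled in 2 libraries per treatment and mark, which gave 16 libraries, and both groups share the single cell line and its rearrangement. IgG samples are not analysed here. For each mark, a gene was represented by the listed interval with the highest mean count over the 4 libraries among those overlapping 2 kb either side of an annotated transcription start site (TSS). For KMT2A and MLLT3 every interval over the gene body was described as well.

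Libraries held 30070119 to 44591150 counts for H3K4me3, 9885836 to 14165777 for H3K27ac, 15204186 to 30584219 for H3K4me1 and 10032503 to 12047958 for H3K27me3. No source says that replicates came from separate cultures, so p-values measure the spread between these libraries, which may be technical. The intervals are those of the deposited lists, so a gene without one is a gene at which none was listed, which is not a measurement of 0. As a check of the cell type, 8 of 8 myeloid leukemia markers, SPI1 and CEBPA among them, had an H3K4me3 interval at a TSS. Of 8 genes that mark other cell types, 4 had one, PAX5, CD4 and COL1A1 among them, and CD3E, GATA1, HBB and ALB had none.

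KMT2A and its paralog KMT2B are methyltransferases of lysine 4 on histone H3, and H3K4me3 marks the starts of active genes. MEN1 encodes menin, the scaffold that holds KMT2A on chromatin together with the PSIP1 product LEDGF. In KMT2A-rearranged leukemia the amino-terminal portion of KMT2A is joined to a partner such as MLLT3 (AF9), MLLT1 (ENL), AFF1 (AF4) or AFF4, proteins that bring in CDK9, the kinase that releases paused RNA polymerase II, and DOT1L, the methyltransferase of lysine 79 on histone H3. A Cut&Tag interval at KMT2A or MLLT3 collects fragments from rearranged and intact copies alike, and the counts do not separate them. H3K27ac marks active promoters and enhancers, H3K4me1 enhancers and the flanks of promoters, and H3K27me3 chromatin silenced by Polycomb.

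The starts of these genes were rich in CpG dinucleotides. RefSeq windows (GRCh38.p14) from 250 bases before to 50 bases after a start were matched for 9 of the 10 genes, as 12 windows, and held 20 to 48 CG pairs, against a median of 14 over 35116 windows. Of the 12 windows, 11 lay inside the H3K4me3 interval at the gene's 5′ end. The other, a second AFF1 window, lay inside another H3K4me3 interval of AFF1, centred 72.3 kb into the gene. The windows of KMT2A and KMT2B, which carried the highest H3K4me3 signal at their 5′ ends, are shown beside those of MEN1 and MLLT3, the pair without a listed H3K27ac interval at the promoter. They are written 5′ to 3′ on the gene's strand, with each CG pair in capitals.
KMT2A (chr11:118436242-118436541, plus strand, 36 CG pairs): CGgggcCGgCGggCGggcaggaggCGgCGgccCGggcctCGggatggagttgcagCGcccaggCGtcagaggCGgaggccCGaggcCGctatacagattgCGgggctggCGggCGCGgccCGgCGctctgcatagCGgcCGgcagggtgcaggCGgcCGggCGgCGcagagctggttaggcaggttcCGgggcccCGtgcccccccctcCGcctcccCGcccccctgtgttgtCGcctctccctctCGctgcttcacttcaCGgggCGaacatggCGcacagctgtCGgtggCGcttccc
KMT2B (chr19:35717753-35718052, plus strand, 48 CG pairs): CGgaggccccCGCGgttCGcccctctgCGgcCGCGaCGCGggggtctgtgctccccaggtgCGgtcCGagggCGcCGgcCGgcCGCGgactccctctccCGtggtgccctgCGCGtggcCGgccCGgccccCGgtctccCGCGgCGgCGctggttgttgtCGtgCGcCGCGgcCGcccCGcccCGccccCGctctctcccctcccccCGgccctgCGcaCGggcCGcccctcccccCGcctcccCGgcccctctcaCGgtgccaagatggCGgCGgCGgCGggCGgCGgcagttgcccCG
MEN1 (chr11:64810502-64810801, minus strand, 25 CG pairs): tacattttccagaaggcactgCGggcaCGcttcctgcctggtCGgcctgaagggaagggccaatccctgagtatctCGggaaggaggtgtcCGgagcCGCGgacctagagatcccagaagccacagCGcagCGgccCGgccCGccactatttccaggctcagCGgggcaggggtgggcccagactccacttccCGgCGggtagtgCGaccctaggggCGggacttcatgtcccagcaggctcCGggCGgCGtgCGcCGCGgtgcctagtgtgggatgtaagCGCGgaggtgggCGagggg
MLLT3 (chr9:20622450-20622749, minus strand, 24 CG pairs): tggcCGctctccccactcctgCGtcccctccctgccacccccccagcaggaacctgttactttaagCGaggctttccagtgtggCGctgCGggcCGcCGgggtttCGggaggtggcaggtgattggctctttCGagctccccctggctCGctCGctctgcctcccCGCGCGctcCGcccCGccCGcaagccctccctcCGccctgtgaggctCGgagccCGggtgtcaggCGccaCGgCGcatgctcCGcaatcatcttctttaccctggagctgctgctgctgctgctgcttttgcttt
The KMT2B window stood at percentile 98.2 of CG pairs and the KMT2A window at 88.0, while MEN1 and MLLT3 stood at 68.9 and 67.0. Of the genes not shown, CDK9 stood at 97.4, MLLT1 at 95.4, AFF1 at 94.6 and 93.7, PSIP1 at 83.6 and 76.7, and AFF4 at 80.2. MLLT1 thus stood above KMT2A in CG pairs although its H3K4me3 level was lower. MEN1 has a second, overlapping window with 20 CG pairs. The GC box, searched as GGGCGG on both strands, was found in at least 1 window of 9 of 9 matched genes, and 45.0% of all windows held it. The shares here count windows, whereas the gene counts take any window of a gene. The MEN1 window with 20 CG pairs and a PSIP1 window held no GC box. The TATA box, searched as TATAAA on both strands, was in no window of these genes, and 11.5% of all windows held it. CCAAT was found in 4 of the 9 genes (34.6% of all windows) and CCGGAA, the core of ETS factor sites, in 3 (17.2%). Such matches describe the letters of the windows and are not evidence of bound factors.

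Active marks covered all of these promoters, and none carried H3K27me3. An H3K4me3 interval lay within 2 kb of a TSS of all 10 genes, whereas 64.0% of all protein-coding genes had one. H3K27ac was listed at 8 of the 10, the exceptions being MEN1 and MLLT3, and H3K4me1 at 6, namely KMT2A, KMT2B, DOT1L, MLLT1, AFF1 and CDK9. No H3K27me3 interval overlapped the window or the body of any of the genes, although 3975 protein-coding genes (19.9%) had one near a TSS. The nearest lay between 36.9 kb (KMT2B) and 832 kb (MLLT3) from the gene's start. Of all protein-coding genes with H3K4me3, 88.8% also had H3K27ac and 60.8% H3K4me1, and 81.9% had no H3K27me3. The counts of 8, 6 and 10 of the 10 genes lie near these shares. Among the 12783 genes with H3K4me3, the combination of all 3 active marks without H3K27me3 was the most frequent (48.5%) and included 6 of the 10 genes. H3K4me3 and H3K27ac without H3K4me1 or H3K27me3 was found at 29.7% of them, among which were PSIP1 and AFF4.

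MEN1 and MLLT3 belonged to a small class. H3K4me3 without any of the other marks was listed at 324 genes, 2.53% of those with H3K4me3, and the median DMSO level of that class was 1.46 CPM (counts scaled to the normalized library size) per kb of interval. Both genes were above that median, at 4.22 ± 0.0589 (SD, n = 2) for MEN1 and 2.18 ± 0.137 (SD, n = 2) for MLLT3. The nearest H3K27ac interval lay 6.66 kb from the MEN1 start, at exon 10 of 10, and 60.8 kb from the MLLT3 start. H3K27ac outside the listed intervals was not analysed here.

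Among the methyltransferases and their tethers, KMT2A had the highest H3K4me3 level of the 10 genes. Its interval (chr11:118433805-118439307, 5.50 kb wide, over exon 1) read 10.3 and 10.6 CPM per kb in the DMSO libraries, which is percentile 97.6 of all genes with H3K4me3, and 10.1 and 9.84 in the PR-957 libraries. Both PR-957 libraries were below both DMSO libraries, by a log2 fold change of -0.07 ± 0.07 (SE) with an adjusted p of 0.896 and a 95% confidence interval of 0.866- to 1.05-fold. KMT2A H3K27ac was in the middle of the distribution, at 3.55 and 3.76 CPM per kb in DMSO and 3.37 and 4.02 in PR-957 (percentile 44.8), so that the groups overlapped. Its H3K4me1 interval, a 1.43-kb stretch of intron 1, was the weakest of the 6 listed, with 29 and 31 counts in DMSO and 18 and 38 in PR-957. At that depth the 95% interval of the change ran from 0.693- to 2.31-fold.

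KMT2B was represented in H3K4me3 by a 13.9-kb interval at the 3′ end of the gene that also covered the starts of IGFLR1, LIN37, PSENEN and U2AF1L4. It read 5.57 and 5.56 CPM per kb in DMSO and 5.28 and 5.72 in PR-957. At the 5′ end of KMT2B itself the H3K4me3 level was higher, at 11.5 and 11.3 CPM per kb in DMSO and 11.5 and 11.7 in PR-957, with a log2 fold change of 0.02 ± 0.07 (SE, adjusted p = 0.972). With only intervals at the 5′ end taken, KMT2B rather than KMT2A was therefore the highest of the 10 genes. KMT2B H3K27ac, whose interval covers the 5′ end, was 6.20 and 5.78 CPM per kb in DMSO and 6.12 and 6.67 in PR-957. The H3K4me1 interval that represents the gene covers the same 4 neighbouring starts, with a log2 fold change of -0.21 ± 0.12 (SE, adjusted p = 0.363), and the one at the 5′ end had 0.17 ± 0.14 (SE, adjusted p = 0.563).

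MEN1 H3K4me3 was 4.18 and 4.26 CPM per kb in DMSO and 4.07 and 3.84 in PR-957, and its log2 change was -0.09 ± 0.11 (SE, adjusted p = 0.913). The groups did not overlap, but the 95% confidence interval of 0.808- to 1.09-fold included no change. PSIP1 H3K4me3 was 4.32 and 4.99 CPM per kb in DMSO and 5.02 and 4.60 in PR-957, with overlapping groups. PSIP1 had a narrow but strong H3K27ac interval (1.89 kb, percentile 78.9 by level), with 7.51 and 6.60 CPM per kb in DMSO and 7.76 and 8.32 in PR-957. Both PR-957 libraries were above both DMSO libraries there, and the log2 fold change of 0.19 ± 0.17 (SE) did not pass the test (adjusted p = 0.859).

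The YEATS-domain readers MLLT3 and MLLT1, which bind acylated histones, had the lowest H3K4me3 levels per kb of the 10 genes at the intervals that represent them. For MLLT1 this rests on an interval 8.01 kb wide, and 2 narrower intervals at its start read 5.13 and 5.42 CPM per kb in DMSO. MLLT3, a fusion partner of KMT2A in these cells, read 2.28 and 2.08 CPM per kb in DMSO and 2.35 and 2.13 in PR-957 (percentile 17.1), with a log2 fold change of 0.04 ± 0.11 (SE, adjusted p = 0.969) and a 95% confidence interval of 0.884- to 1.19-fold. MLLT1 read 3.19 and 2.87 in DMSO and 2.83 and 3.20 in PR-957 (percentile 26.4). Its groups overlapped, and the 95% confidence interval was 0.891- to 1.11-fold. MLLT1 by contrast held the highest H3K4me1 level of the 6 genes with that mark, over a 14.3-kb interval at its start, with 4.06 and 3.90 CPM per kb in DMSO and 3.25 and 3.66 in PR-957. The groups did not overlap, and the log2 fold change was -0.20 ± 0.12 (SE, adjusted p = 0.385). The MLLT1 H3K27ac interval with the most counts lay 47.9 to 69.2 kb into the gene and was 21.2 kb wide, at 2.18 and 1.93 CPM per kb in DMSO against 2.05 and 2.04 in PR-957. At the 5′ end of MLLT1, H3K27ac was 3.54 and 2.78 in DMSO and 2.10 and 3.51 in PR-957.

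AFF1 and AFF4, the scaffolds of the super elongation complex, differed in H3K27ac and H3K4me1, a mark with no listed interval near a TSS or in the body of AFF4. By the representing intervals, AFF4 had the highest H3K27ac level of the 8 genes with that mark. It read 11.3 and 9.44 CPM per kb in DMSO and 11.2 and 11.05 in PR-957 (percentile 91.8). AFF1 read 3.62 and 4.20 in DMSO and 3.65 and 4.10 in PR-957. The AFF4 interval is narrower than that of AFF1 (3.10 against 6.46 kb), and over these whole intervals the DMSO means were 32.1 CPM for AFF4 and 25.3 CPM for AFF1. Narrower listed intervals at other starts had DMSO means near the 10.4 CPM per kb of AFF4, with 10.5 at KMT2B, 10.4 at DOT1L and 10.3 at PSIP1. A narrower interval at the AFF1 start read 8.75, so the order depends on the interval taken. Neither gene's groups were separated in H3K27ac. Per kb, their H3K4me3 levels were closer to each other, with 6.15 and 6.39 CPM per kb in DMSO and 6.14 and 5.96 in PR-957 at AFF1, and 5.58 and 5.41 in DMSO and 6.49 and 5.22 in PR-957 at AFF4. The AFF1 PR-957 libraries lay below DMSO by a narrow margin, and those of AFF4 spanned the DMSO values. AFF1 H3K4me1, represented by a 14.5-kb interval 98.5 to 113 kb into the gene, read 1.60 and 1.59 in DMSO and 1.83 and 1.63 in PR-957, and the log2 change was 0.11 ± 0.12 (SE, adjusted p = 0.680).

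CDK9, the kinase subunit of P-TEFb, and DOT1L had middle to high levels of all 3 active marks. CDK9 H3K4me3 was 4.80 and 5.30 CPM per kb in DMSO and 4.75 and 5.31 in PR-957, so that the groups overlapped and the log2 fold change was 0.00 ± 0.08 (SE, adjusted p = 0.998). CDK9 H3K27ac was 4.04 and 4.03 in DMSO and 3.40 and 3.63 in PR-957, and CDK9 H3K4me1 was 3.46 and 3.19 in DMSO and 2.70 and 2.81 in PR-957. In both marks the PR-957 libraries were below the DMSO libraries. The log2 fold changes of -0.19 ± 0.15 (SE, adjusted p = 0.829) for H3K27ac and -0.27 ± 0.12 (SE, unadjusted p = 0.0201, adjusted p = 0.207) for H3K4me1 did not pass the edgeR test. Of the 4 overlapping H3K27ac intervals at CDK9, the 3 narrower ones had log2 fold changes of -0.36 to -0.38 with adjusted p-values of 0.493 to 0.523, and the 4 H3K4me1 intervals -0.27 to -0.32 with adjusted p-values of 0.115 to 0.207. The 4 intervals of a mark overlap and count the same fragments, and the H3K4me1 interval that represents CDK9 ends 1.14 kb before the gene's start and covers the start of SH2D3C.

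DOT1L H3K4me3 was 6.38 and 5.82 CPM per kb in DMSO and 5.998 and 6.31 in PR-957, over an 8.94-kb interval that also covers the start of AP3D1. Its H3K27ac interval was the widest of the set, at 24.6 kb (percentile 99.7 by width), and covers the starts of PLEKHJ1 and SF3A2 near the 3′ end of the gene. It read 3.77 and 3.62 in DMSO and 3.82 and 3.84 in PR-957, where both PR-957 libraries were above DMSO by a log2 fold change of 0.05 ± 0.06 (SE, adjusted p = 0.914). At the 5′ end DOT1L H3K27ac was 6.29 and 6.05 in DMSO and 5.77 and 6.61 in PR-957. DOT1L H3K4me1 was 3.12 and 3.23 in DMSO and 2.84 and 3.18 in PR-957, with overlapping groups.

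**Figure D1:**
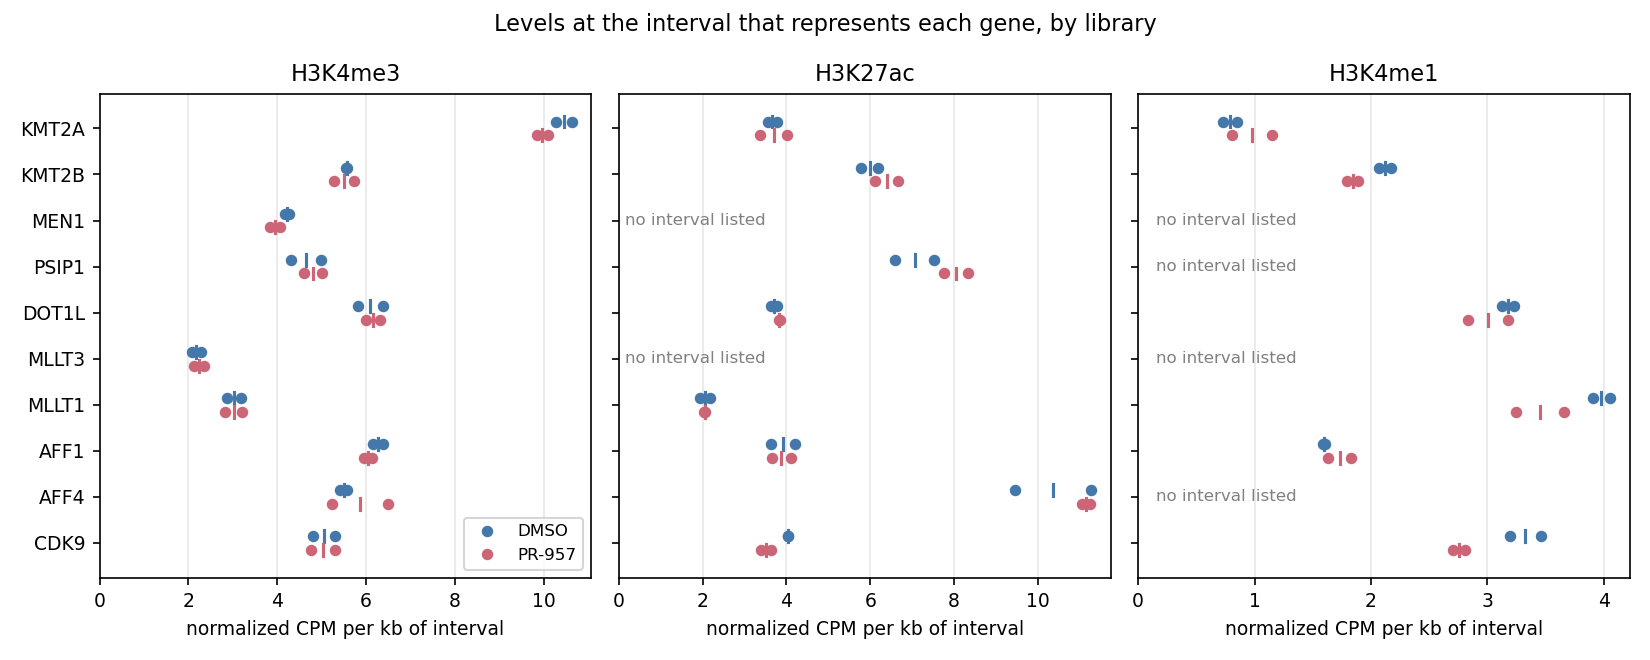
Normalized CPM per kb of interval (x axis, linear, from 0) for each of the 10 genes (rows) in H3K4me3, H3K27ac and H3K4me1; each point is 1 library (blue DMSO, red PR-957) and each short line the mean of 2. KMT2A is highest in H3K4me3 (10.5 in DMSO), AFF4 in H3K27ac (10.4) and MLLT1 in H3K4me1 (3.98), and MEN1 and MLLT3 have an H3K4me3 interval only.

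Levels differed between genes far more than between treatments. In DMSO the highest H3K4me3 level was 4.80 times the lowest, and the ratio was 5.05 for H3K27ac and 5.05 for H3K4me1. For H3K4me3 the order was KMT2A, AFF1, DOT1L, KMT2B, AFF4, CDK9, PSIP1, MEN1, MLLT1 and MLLT3, in which the DMSO libraries of AFF1 and DOT1L, of KMT2B and AFF4, and of CDK9 and PSIP1 overlapped. For H3K27ac the order was AFF4, PSIP1, KMT2B, CDK9, AFF1, DOT1L, KMT2A and MLLT1, in which the libraries of each neighbouring pair from CDK9 to KMT2A overlapped. For H3K4me1 it was MLLT1, CDK9, DOT1L, KMT2B, AFF1 and KMT2A, of which CDK9 and DOT1L overlapped. The orders differed between marks, with KMT2A first in H3K4me3, next to last in H3K27ac and last in H3K4me1. Since intervals of unlike width are compared per kb, a wide interval with flanks of low signal reads lower than a narrow one, and the ratios with other intervals stand in the closing section.

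The comparison of PR-957 with DMSO addressed whether the inhibitor altered the marks at the intervals that represent the genes of the complex. As given above, some of these intervals lie away from the gene's own start. None of the 10 genes was called in H3K4me3, none of 8 in H3K27ac and none of 6 in H3K4me1 by edgeR's quasi-likelihood test at an adjusted p of 0.05, against a background of 0.226% of all tested intervals for H3K4me3, 0.238% for H3K27ac and 1.94% for H3K4me1. With backgrounds this low, a count of 0 among 6 to 10 genes is near the background. At an unadjusted p under 0.05 the counts were 0, 0 and 1 (CDK9 in H3K4me1), where 7.52%, 8.01% and 16.2% of all intervals passed, and DESeq2 called 0 in each mark, against 0.0574%, 0.114% and 0.024% of all intervals. The median log2 fold change was -0.01 for H3K4me3, 0.04 for H3K27ac and -0.14 for H3K4me1, and over all tested intervals it was 0.00 in each of these marks. Of the 10 genes, 0 had both PR-957 libraries above DMSO in H3K4me3 and 3 had both below (KMT2A, MEN1 and AFF1), against 18.1% and 18.4% of all intervals. The counts were 2 above (PSIP1 and DOT1L) and 1 below (CDK9) of 8 for H3K27ac, with backgrounds of 18.1% and 18.8%. For H3K4me1 they were 1 above (AFF1) and 3 below (KMT2B, MLLT1 and CDK9) of 6, with backgrounds of 23.5% and 23.2%. These counts depend on the interval taken. With only intervals at the 5′ end, KMT2B H3K4me3 had both PR-957 libraries above DMSO. The groups then overlapped for DOT1L H3K27ac and KMT2B H3K4me1, and AFF1 had no H3K4me1 interval.

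**Figure D2:**
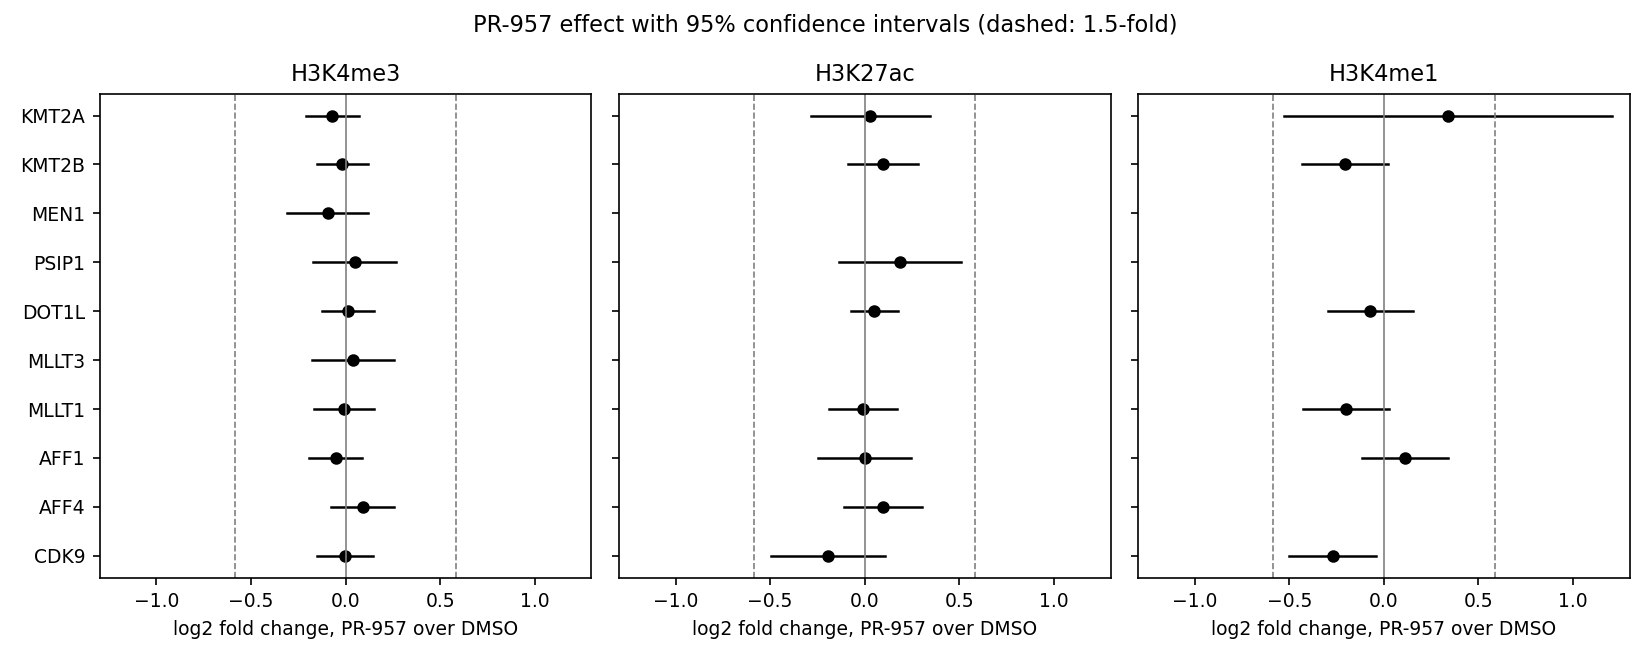
Log2 fold change of PR-957 over DMSO (x axis) at each gene's interval in the 3 active marks; points are edgeR estimates, bars 95% confidence intervals (n = 2 per group), and dashed lines mark 1.5-fold in either direction. Every H3K4me3 interval lies within 1.5-fold and includes 0, and the H3K4me1 interval of KMT2A, with 18 to 38 counts per library, is the widest.

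The precision differed by mark. All 10 confidence intervals for H3K4me3 stayed within 1.5-fold of DMSO. The widest ran from 0.888- to 1.205-fold for PSIP1 and from 0.884- to 1.19-fold for MLLT3. They rest on a spread pooled over the intervals of the mark. For AFF4, whose PR-957 libraries read 6.49 and 5.22 CPM per kb, leaving out 1 library gave log2 fold changes of -0.07 to 0.24. Over every listed interval near a TSS of the 10 genes, 48 for H3K4me3, 56 for H3K27ac and 34 for H3K4me1, edgeR called 0, and 0, 4 and 4 had an unadjusted p under 0.05. The 4 in H3K4me1 and 3 of the 4 in H3K27ac were those of CDK9, and the other was at MLLT1, 65.4 kb into the gene, with a log2 fold change of 0.45 and an adjusted p of 0.565. When 200 intervals were changed 1.5-fold in counts simulated from these libraries, edgeR found 67% of them in H3K4me3, 24% in H3K27ac and 25% in H3K4me1, and at 2-fold it found 81.5%, 60.5% and 69.5%. The changed intervals were drawn at random from all tested ones, and changes under 1.5-fold were not simulated. Counts were drawn for each interval on its own, with the spread that edgeR had fitted, whereas the real intervals overlap and share fragments. These shares therefore describe such simulated lists and not the intervals of the 10 genes, whose precision varied. The 95% confidence interval ran from 0.950- to 1.13-fold for DOT1L H3K27ac and from 0.693- to 2.31-fold for KMT2A H3K4me1.

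Along KMT2A (chr11:118436456-118526832, 90.4 kb, 36 exons in the canonical transcript), the listed signal was confined to the ends of the gene. All 4 H3K4me3 intervals and 4 of the 5 H3K27ac intervals covered the start and exon 1. The fifth H3K27ac interval lay about 88.6 kb into the gene, over the non-coding part of exon 36, at 1.17 and 0.864 CPM per kb in DMSO and 0.460 and 1.37 in PR-957, with overlapping groups. H3K4me1 was stronger at that end than at the start. Its 4 intervals there, centred 87.3 to 88.7 kb into the gene, had DMSO means of 2.38 to 3.53 CPM per kb, against 0.789 at intron 1. Of the 14 KMT2A intervals, 0 were called by edgeR and 0 had an unadjusted p under 0.05, with log2 fold changes of -0.08 to -0.06 for the H3K4me1 intervals at exon 36. Intervals covered 3.34% of the gene's length in H3K4me3, 4.57% in H3K27ac and 6.98% in H3K4me1.

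MLLT3 (chr9:20341669-20622499, 281 kb, 11 exons) was sparser still. H3K4me3 formed 1 locus over exons 1 and 2, covering 0.845% of the gene, and no H3K27ac or H3K27me3 interval lay anywhere in the body. H3K4me1 had 3 overlapping intervals, about 109 kb into the gene within intron 2. The narrowest, 1.40 kb wide, read 1.07 and 1.11 CPM per kb in DMSO and 1.75 and 1.68 in PR-957. Both PR-957 libraries were above both DMSO libraries there, as they were for the other 2 intervals, and the log2 fold changes of 0.46 to 0.65 had unadjusted p-values of 0.0623 to 0.0817 and adjusted p-values of 0.340 to 0.380. All 7 MLLT3 intervals thus stayed uncalled, and none had an unadjusted p under 0.05. The gene is divided between rearranged and intact copies in these cells, and which copy the intron 2 fragments come from cannot be told apart.

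**Figure D3:**
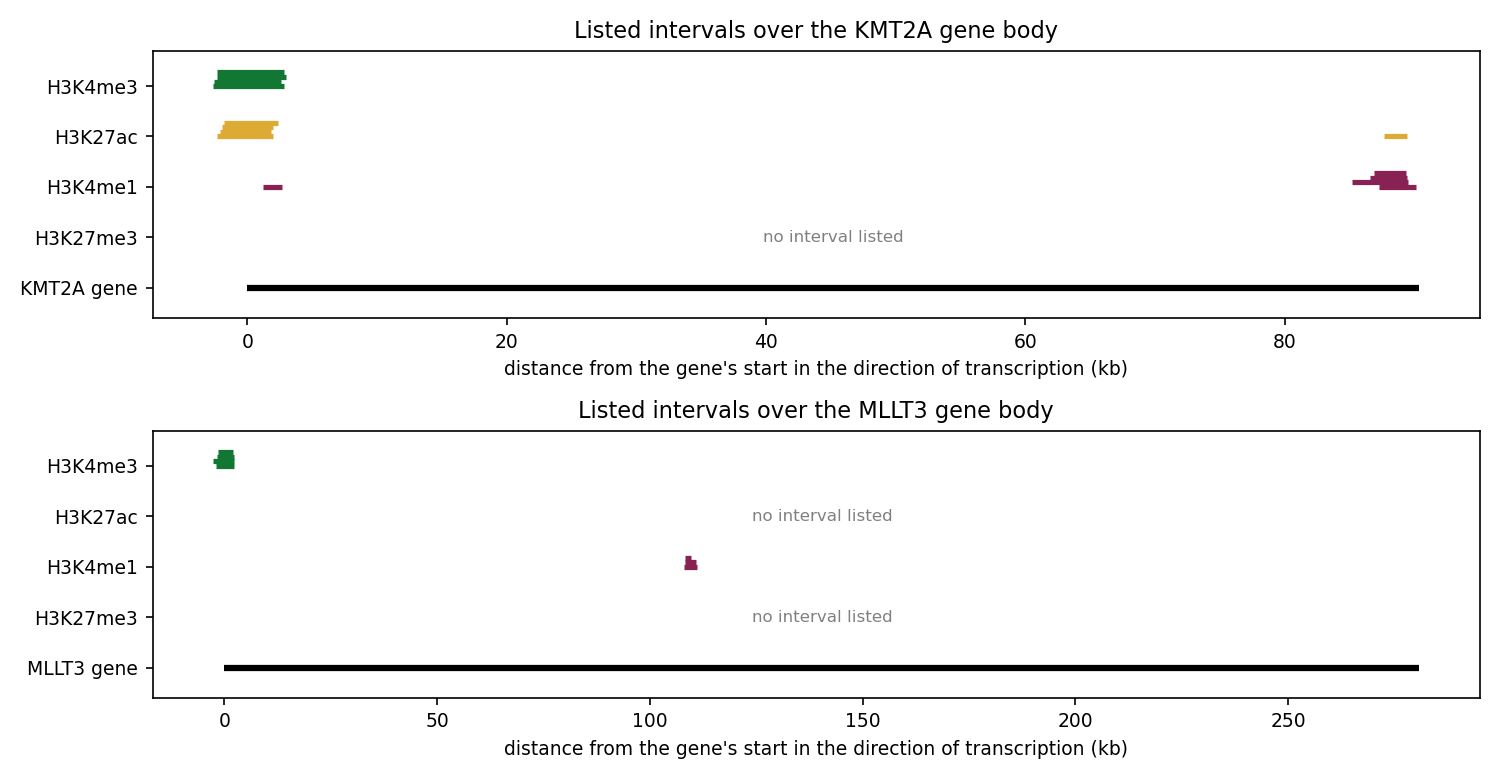
Listed intervals over the KMT2A (upper) and MLLT3 (lower) gene bodies, by distance from the gene's start in kb in the direction of transcription; each coloured bar is 1 interval of the mark named at left, stacked where they overlap, and the black bar is the gene. KMT2A has H3K4me1 and H3K27ac at its far end, and MLLT3 has H3K4me1 alone within intron 2.

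The bodies of the other genes ranged from nearly bare to nearly covered. H3K27ac intervals covered 97.9% of DOT1L and 61.3% of MLLT1, but 2.59% of AFF4 and 2.31% of PSIP1. H3K4me1 intervals covered 51.5% of AFF1, in 62 intervals at 15 loci, and none lay in AFF4 or PSIP1. Over the 10 gene bodies there were 63 H3K4me3, 95 H3K27ac and 105 H3K4me1 intervals, of which edgeR called 0, and 0, 4 and 10 had an unadjusted p under 0.05, where 7.52%, 8.01% and 16.2% of all intervals did. The lowest adjusted p, 0.0651, belonged to an AFF1 H3K4me1 interval over exon 7, 157 kb into the gene, that read 0.885 and 0.704 CPM per kb in DMSO and 1.47 and 1.22 in PR-957. The change was 0.74 ± 0.24 (SE) on the log2 scale, and this interval was singled out after its values were seen. In DOT1L, 4 overlapping H3K4me1 intervals centred near 63.7 kb into the gene had log2 changes of -0.42 to -0.30 with adjusted p-values of 0.162 to 0.390. The one with the lowest p, over exon 27 and likewise picked after its values were seen, read 2.36 and 2.25 CPM per kb in DMSO and 1.60 and 1.82 in PR-957.

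The other genes of the same complexes were taken from a list of 35. It covers subunits and associated proteins of the H3K4 methyltransferases (8 genes), and further H3K4 methyltransferases with the associated CXXC1 (5). The rest are the super elongation complex and P-TEFb cyclins (9), P-TEFb regulators (5), the DOT1L complex (2) and the PAF1 complex (6). An interval near a TSS was listed at 33 of the 35 in H3K4me3 (none at AFF2 and MLLT6) and at 33 in H3K27ac. In H3K4me1 the number was 21, and in H3K27me3 it was 1 (ELL2). In no mark was a partner gene called by edgeR or DESeq2. The H3K27me3 background was 5.92% of intervals in edgeR and 4.02% in DESeq2. In the other marks it was 0.226% (H3K4me3), 0.238% (H3K27ac) and 1.94% (H3K4me1) in edgeR, and 0.0574%, 0.114% and 0.024% in DESeq2. The ELL2 groups overlapped in H3K27me3, where 21.6% of all intervals had both PR-957 libraries above DMSO and 22.5% both below. At an unadjusted p under 0.05 by edgeR there were 2 in H3K4me3, PAF1 among them, and 2 in H3K27ac, CTR9 among them. There were 3 in H3K4me1 (KMT2C, MEPCE and HCFC1) and 0 in H3K27me3. Over all intervals 7.52%, 8.01%, 16.2% and 15.6% passed in these marks, in that order, and the partner counts lie near these shares. In H3K4me3 the median log2 fold change was -0.05, against 0.00 over all intervals, and the lowest adjusted p by edgeR was 0.358. Both PR-957 libraries were below DMSO for 9 of 33 and above for 1, against 18.4% and 18.1% of all intervals. The counts were 8 below and 7 above of 33 for H3K27ac (backgrounds 18.8% and 18.1%), and 5 below and 4 above of 21 for H3K4me1 (23.2% and 23.5%).

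Of the PAF1 complex, which travels with elongating RNA polymerase II and binds KMT2A, PAF1 itself had the lowest H3K4me3 value, -0.21 ± 0.08 (SE, unadjusted p = 0.00628, adjusted p = 0.358), and RTF1 the highest, 0.11 ± 0.08 (SE, adjusted p = 0.803). In H3K27ac the values ran from -0.48 ± 0.30 (SE, adjusted p = 0.738) for HCFC2 to 0.28 ± 0.17 (SE, adjusted p = 0.719) for SKIC8. HCFC2 is an associated protein of the H3K4 methyltransferases, and SKIC8 is another PAF1 complex subunit. In H3K4me1 the range was -0.48 ± 0.23 (SE, adjusted p = 0.272) for HCFC1 to 0.64 ± 0.42 (SE, adjusted p = 0.463) for LARP7. LARP7 is a protein of the 7SK particle, which sequesters P-TEFb. KMT2C, a methyltransferase of enhancer H3K4me1, had 0.34 ± 0.13 (SE, adjusted p = 0.13). The members' values lay within these ranges in each mark. Not all of these extremes are values of the gene's own start. In H3K4me1 the HCFC1 interval ends 128 bases before the gene's start and covers the start of TMEM187. The LARP7 interval lies 5172 to 7036 bases into the gene and had 22 to 46 counts per library. In H3K4me3 the RTF1 interval lies 6709 to 10643 bases into the gene, and the PAF1 interval also covers the start of MED29. The HCFC2 H3K27ac interval also covers the start of GLT8D2.

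**Figure D4:**
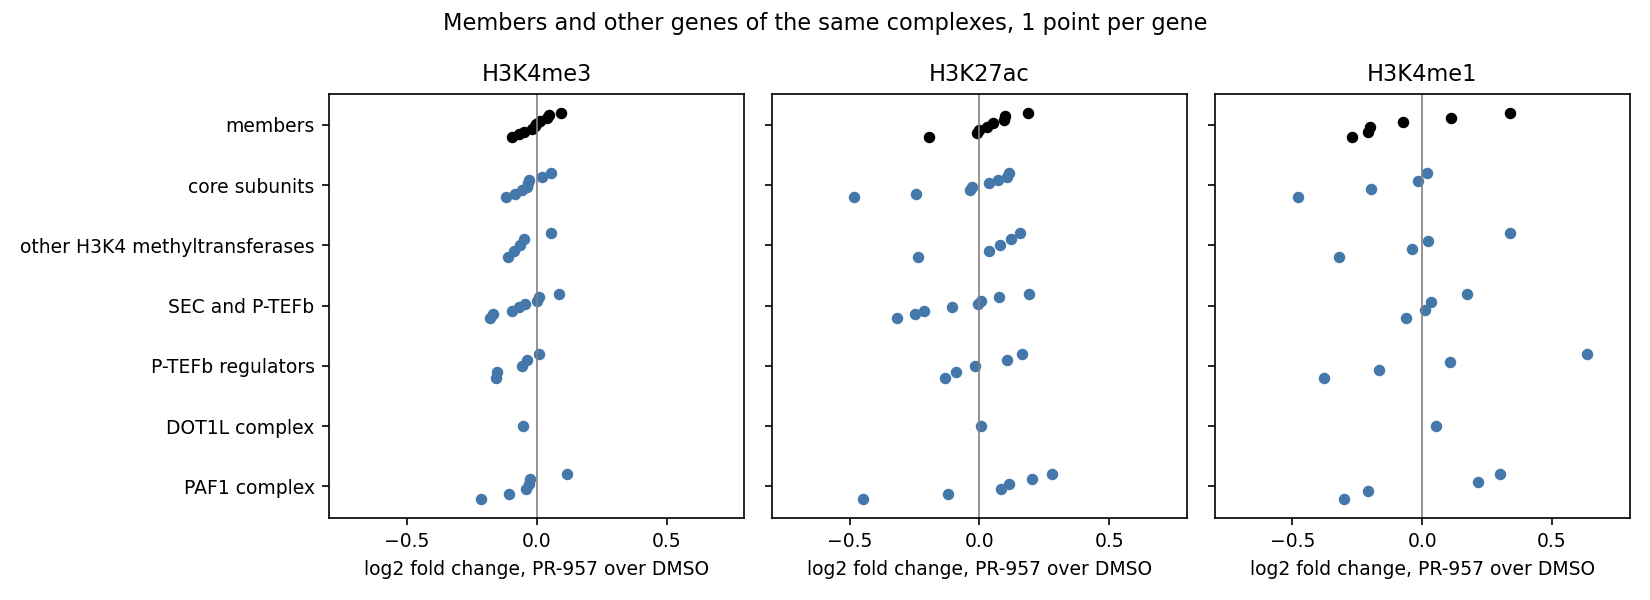
Log2 fold change of PR-957 over DMSO (x axis) for the 10 genes (black) and the listed partner genes by complex (blue), 1 point per gene with an interval in that mark. The rows of core subunits and of other H3K4 methyltransferases also hold associated proteins. H3K4me3 values stay between -0.21 and 0.11, and the spread is larger in H3K27ac and H3K4me1.

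KMT2A was compared with the 7188 other protein-coding genes that had an interval in all 3 active marks, by the distance between log2 CPM per kb values over 12 libraries. The nearest were LPCAT4 (0.739), CAST (0.784) and TBC1D4 (0.875), where the median gene stood at 3.56. The distance describes the levels in these libraries across marks. No such comparison was possible for MLLT3, which has H3K4me3 alone at its start.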

How the data were processed

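The authors deposited whole-number counts per interval and library, without normalization, on 1 list of overlapping intervals per mark shared by its 4 libraries. Reads were aligned to hg38 with Bowtie2, and the submitters' processing notes name Bowtie2 2.2.5, SEACR 1.3, Picard 2.27.1 and SAMtools 1.7, while the methods name MACS2 or SEACR; the counter and the treatment of duplicates are not given in the sources used here. Interval coordinates are those of the files, and whether starts count from 0 or 1 is not stated.

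Within each mark, intervals passing edgeR's filterByExpr (minimum count 10) entered edgeR 4.0.16 (R 4.3.3) with TMM factors, and PR-957 was tested against DMSO with its quasi-likelihood F-test, with Benjamini-Hochberg adjustment at 0.05 over all tested intervals (H3K4me3 59229, H3K27ac 74510, H3K4me1 108158, H3K27me3 31806). CPM use effective library sizes. The test was tested on simulated data (200 changed intervals). Genes named are the 10 and, of the partner list, the extremes and those at an unadjusted p under 0.05; some gene names are not reported here. The members and lists were chosen with earlier results of these data known. Alternatives were DESeq2 1.42.0, cyclic loess offsets (limma 3.58.1), RLE factors, unscaled library sizes, other count filters, the replicate block, leaving out each library, windows of 1 and 5 kb and other representing intervals; intervals at the 5′ end only were added after seeing the data. Counting precision rests on fragments that may include PCR duplicates. With 2 against 2 libraries, an exact permutation test cannot give p below 0.333.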

Additional observations from a re-analysis of the deposited data

How the results depend on the processing

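No member was called in H3K4me3, H3K27ac or H3K4me1, and no interval of the KMT2A or MLLT3 body, under any alternative run. Of 24 gene and mark pairs, 15 changed the sign of the log2 fold change in at least 1 alternative (39 of 382 values), so the direction of those small differences was not settled; the CDK9 values stayed below 0 in all alternatives, from -0.50 to -0.15 for H3K27ac and from -0.33 to -0.15 for H3K4me1, with lowest adjusted p-values of 0.175 and 0.115. With KMT2A H3K4me1, cyclic loess offsets gave -0.03 in place of 0.34. The replicate block left the number of called genes at 0 in each mark; samples of the same number correlated at 0.152 in H3K4me3 and at -0.00888 to -0.00125 in the other marks, so the numbers do not establish a pairing.

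The partner count was not constant. In H3K4me1 it was 1 with cyclic loess offsets and ranged from 0 to 1 on leaving out 1 library, where removing PR-957 replicate 2 called HCFC1 (-1.10, adjusted p = 0.0469). In H3K27me3 it was 1 with the 5 kb window, which reaches a domain upstream of MLLT10. The ratio of the highest to the lowest member level in DMSO was 4.80 for H3K4me3, 5.24 with the 5′ end only and 7.43 by CPM of the whole interval. For H3K27ac it was 5.05, 3.80 with the highest count per kb, 3.28 with the 5′ end only and 6.81 by whole interval, and for H3K4me1 5.05, 2.49 with the 5 kb window, 7.50 with the highest count per kb and 50.4 by whole interval. The causes were not tested.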

Other observations

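The 5 kb window reached an H3K27me3 domain beside MLLT10, a subunit of the DOT1L complex and a further KMT2A fusion partner, that the 2 kb window leaves out. The interval (chr10:21498380-21520447, 22.1 kb) ends 4.20 kb before the MLLT10 start and overlaps SKIDA1, not the MLLT10 gene. Its level was 130 and 122 CPM with DMSO and 77.0 and 78.6 CPM with PR-957, so that both PR-957 libraries were below both DMSO libraries. The log2 fold change was -0.69 ± 0.07 (SE) with an adjusted p of 2.1e-15 by edgeR, in a mark in which 5.92% of all intervals were called. Of the 1882 intervals called there with TMM factors, 1620 were lower with PR-957. With unscaled library sizes 2217 were called, 703 of them lower, so the balance of directions depended on the scaling. Among intervals with a mean count of at least 50, as this one has, 13.2% were called. At the intervals that represent MLLT10 the log2 fold change did not pass the test in H3K4me3 (-0.05 ± 0.08, adjusted p = 0.934), H3K27ac (0.01 ± 0.07, adjusted p = 0.994) or H3K4me1 (0.05 ± 0.14, adjusted p = 0.893). The H3K4me3 and H3K27ac intervals cover the starts of both MLLT10 and SKIDA1, and the H3K4me1 interval lies inside MLLT10. The H3K27me3 interval was singled out after its values were seen.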
